A study of Mus musculus with 9 samples.

Results

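SNARE proteins and their partners, the machinery that fuses transport vesicles with their target membranes, were followed as mRNA in brown adipose tissue of obese mice given vehicle or cotadutide. The 39 genes were taken by symbol from 49315 genes in the count tables: 13 syntaxins, 5 syntaxin binding proteins, 7 vesicle-associated membrane proteins (VAMPs), 4 genes of the SNAP-25 family, 3 genes of SNARE disassembly and 7 further SNAREs of the Golgi and endosomes. All 39 matched 1 Ensembl identifier each, and 38 passed the filter on low counts. Only Snap25 did not. The choice of these genes, with Stxbp2 set against its paralogs, used the cotadutide against vehicle values of these 9 libraries. The differences between groups of the 39 genes are therefore given as a description, with no p-value.

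Both groups were male C57Bl/6J mice with diet-induced obesity, 14 weeks of age, acclimated for 3 weeks and fed a 60% high fat diet until they weighed about 50 g. They lived 1 to a cage and below thermoneutrality. One group of 4 mice received vehicle and the other of 5 mice received cotadutide, a peptide agonist of the GLP-1 and glucagon receptors, by daily subcutaneous injection for 28 days. The dose is not given in the sources used here. Each library was polyadenylated RNA from 30 mg of tissue of 1 mouse.

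Library totals ranged from 16064055 to 25108534 counts in vehicle mice and from 10759631 to 19459796 in cotadutide mice. Levels are CPM, counts per 1000000 of the scaled library total, and folds are cotadutide over vehicle. The tissue carried its defining mRNAs: Ucp1, the uncoupling protein of brown fat, stood at 4781 ± 961 CPM (SD, n = 4) in vehicle mice, and none of 10 brown adipocyte markers was at 0. Vehicle mouse 4 stood apart, its skeletal muscle markers summing to 50010 CPM where the remaining 3 of its group ran from 23725 to 28907 CPM. It stood apart in more than muscle: Lep, picked after its value was seen, was at 50.3 CPM against 271 to 320 CPM in those 3 mice.

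A SNARE complex forms when a SNARE on the vesicle, such as a VAMP, zips together with SNAREs on the target membrane, such as a syntaxin and a SNAP-25 family protein. SM proteins, to which Stxbp2 and Stxbp3 belong, clasp syntaxins and help the complex to assemble, and the ATPase NSF with its SNAP adaptors pulls used complexes apart. In adipocytes, insulin moves the glucose transporter GLUT4 to the cell surface through fusion of this kind, with syntaxin 4, SNAP23, VAMP2 and the SM protein encoded by Stxbp3.

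Cotadutide mice had about 2 times the Stxbp2 mRNA of vehicle mice, while most of the other 37 genes tested differed little between the groups. Genes past an adjusted p of 0.05 in edgeR's quasi-likelihood fit over all genes are termed called. Of the members, 5 lay higher under cotadutide (Stxbp2, Vamp8, Stx6, Stx18 and Stx4a) and 4 lower (Vamp7, Stxbp3, Napg and Snap23). These 9 are 23.7% of 38, beside a background of 18.7% of all 14747 genes tested, or 9.31% higher and 9.34% lower. The groups did not overlap for 3 members that lay higher and 5 that lay lower, or 21.1%, beside 15.8% of all genes (8.06% higher and 7.79% lower). The count of members was 1 higher and 0 lower without vehicle mouse 1, 2 or 3, 3 and 0 without cotadutide mouse 2, and 6 and 5 without vehicle mouse 4. Calls over all genes moved in the same fits, to 47 higher and 92 lower, 42 and 105, and 265 and 473 without vehicle mouse 1, 2 and 3, to 465 and 349 without cotadutide mouse 2, and to 2116 and 1588 without vehicle mouse 4. The median log2 fold change was -0.05 over the members and 0.00 over all genes. The median size of the log2 fold change, regardless of sign, was 0.20 for the members and 0.23 for all genes. In 24 of 38 members the size was under 0.25 on the log2 scale, and Stxbp2 was the single member that reached 2-fold.

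**Figure D1:**
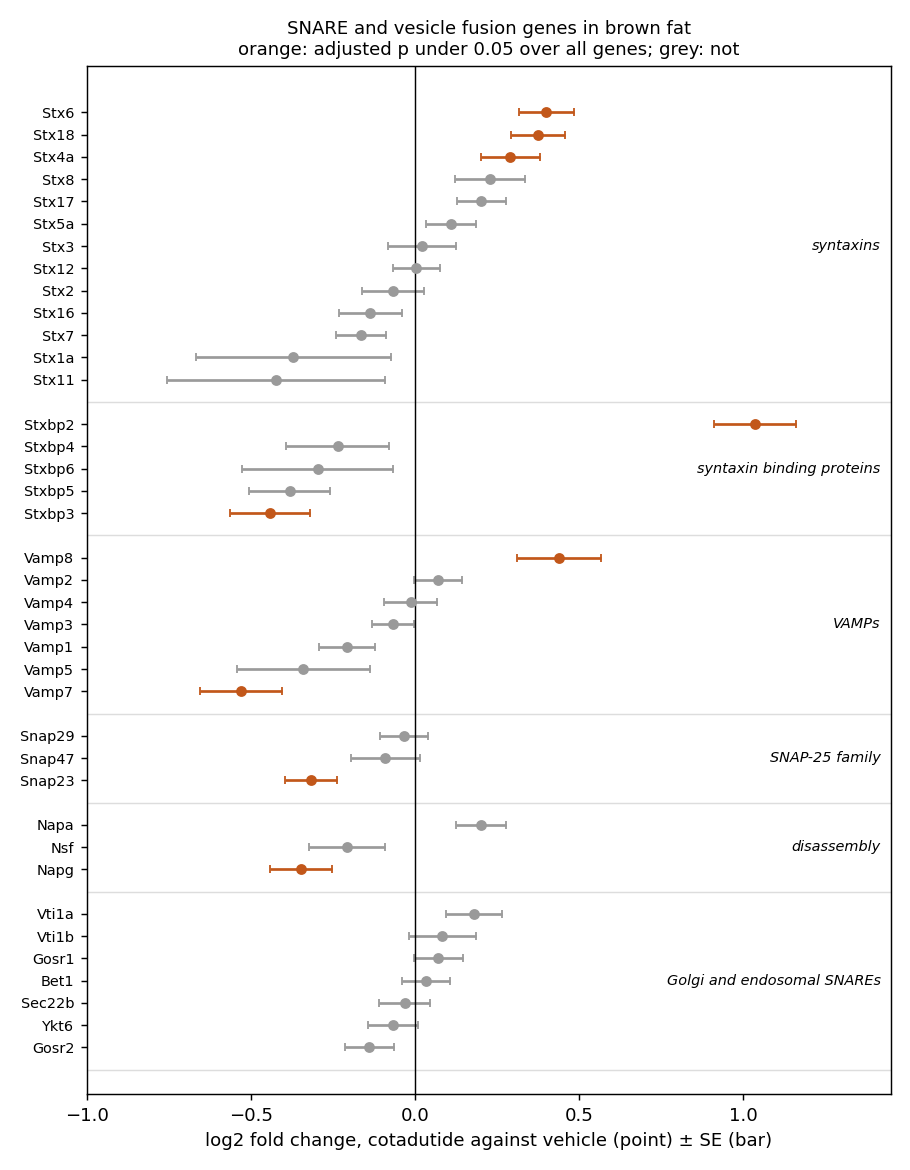
Log2 fold change (x axis, cotadutide against vehicle) with its standard error for the 38 genes tested, grouped by role, with genes past the adjusted p threshold in orange and the others in grey. Stxbp2 lies at 1.04, and every other gene lies between -0.53 and 0.44.

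The syntaxin binding proteins held the widest spread. Stxbp2 encodes Munc18-2, an SM protein known for granule release in mast cells, platelets, neutrophils and cytotoxic lymphocytes, where it works with syntaxin 11 and syntaxin 3. In the 4 vehicle mice it stood at 23.8, 26.4, 26.2 and 35.7 CPM, and in the 5 cotadutide mice at 51.0, 64.7, 62.1, 51.5 and 58.1 CPM. Every cotadutide library was above every vehicle library, and vehicle mouse 4 was the highest of its group. The means were 28.0 ± 5.25 CPM (SD, n = 4) and 57.5 ± 6.16 CPM (SD, n = 5), a 2.05-fold difference (log2 fold change 1.04, SE 0.12). Of all genes tested, 169, or 1.15%, had a log2 fold change at least as high. The log2 fold change was between 0.97 and 1.18 when each library was left out in turn, and the gene stayed past the threshold in all 9 of those fits.

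Stxbp3, the paralog that encodes Munc18c and pairs with syntaxin 4, went the other way. Its level was 28.2, 25.4, 23.3 and 19.9 CPM in vehicle mice and 19.3, 15.0, 15.7, 19.5 and 19.8 CPM in cotadutide mice. The groups did not overlap, but the lowest vehicle mouse, mouse 4, and the highest cotadutide mouse, mouse 5, nearly met. The means were 24.2 ± 3.50 and 17.8 ± 2.32 CPM (SD, n = 4 and 5; log2 fold change -0.44, SE 0.12), and its call was lost when vehicle mouse 1, 2 or 3 was left out, and also without cotadutide mouse 2 and without cotadutide mouse 3.

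Taken as a ratio within each library, Stxbp2 counts were 0.844, 1.04, 1.12 and 1.80 times those of Stxbp3 in vehicle mice and 2.65, 4.32, 3.97, 2.64 and 2.93 times in cotadutide mice. The ratio was thus 1.20 ± 0.414 (SD, n = 4) against 3.30 ± 0.786 (SD, n = 5), with no overlap. That follows from the genes themselves, since each separated the groups in opposite directions, and adds no further support. Per kb of gene model, the length that the count tables give, Stxbp2 made up 49.1% ± 8.05 (SD, n = 4) of the summed level of the 5 binding proteins in vehicle mice and 72.3% ± 4.28 (SD, n = 5) in cotadutide mice. Stxbp3 made up 33.2% ± 5.38 and 17.6% ± 2.96. Part of that lower share comes from the higher Stxbp2 level in the sum.

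The other 3 binding proteins all had negative log2 fold changes, and none was called by edgeR. Stxbp5 encodes tomosyn, which can occupy a syntaxin in place of a VAMP. It stood at 14.9, 15.8, 16.5 and 11.99 CPM in vehicle and at 10.3, 9.49, 12.1, 11.9 and 13.1 CPM in cotadutide mice (log2 fold change -0.38, SE 0.12). Its groups overlapped through vehicle mouse 4. DESeq2 and limma-voom did place Stxbp5 past the threshold, as did edgeR with relative log expression scaling, with either other filter, without mitochondrial genes, without vehicle mouse 4 and without cotadutide mouse 5. Stxbp4, a syntaxin 4 binding protein also called Synip, and Stxbp6, also called amisyn, were scarce, at 4.14 ± 0.558 and 4.41 ± 1.33 CPM (SD, n = 4) in vehicle mice. Their log2 fold changes were -0.23 (SE 0.16) and -0.30 (SE 0.23).

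The sequences before the gene starts of Stxbp2 and Stxbp3 are shown because these paralogs were called in opposite directions. They are the 250 bases before the RefSeq start in build GRCm38.p6, at chr8:3630859-3631108 on the plus strand for Stxbp2 and at chr3:108840503-108840752 on the minus strand for Stxbp3. Capitals mark matches, on either strand, to CACGTG (E-box), TGACG (the core of the cyclic AMP response element), AGGTCA (the core of many nuclear receptor sites) and CCAAT.
Stxbp2: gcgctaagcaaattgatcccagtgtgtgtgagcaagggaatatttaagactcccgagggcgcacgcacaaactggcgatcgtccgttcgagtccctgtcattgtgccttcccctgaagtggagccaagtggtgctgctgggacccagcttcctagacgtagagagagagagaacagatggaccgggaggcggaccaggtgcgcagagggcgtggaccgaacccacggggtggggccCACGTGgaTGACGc
Stxbp3: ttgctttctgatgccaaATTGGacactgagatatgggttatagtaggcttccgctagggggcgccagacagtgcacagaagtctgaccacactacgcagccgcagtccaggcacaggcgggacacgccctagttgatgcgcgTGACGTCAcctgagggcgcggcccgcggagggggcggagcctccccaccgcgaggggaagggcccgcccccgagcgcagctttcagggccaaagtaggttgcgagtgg
The Stxbp2 window held 1 E-box, 14 bases before the start, and 1 TGACG, 6 bases before it, with no overlap between them. The gene model in the count tables begins at 3630955, inside this window. The Stxbp3 window held 2 overlapping TGACG matches that together spell TGACGTCA, and 1 CCAAT box 233 bases before the start. Neither held AGGTCA.

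Windows were found for 34 of the 39 genes, with 40 windows in all since some genes have several starts. An E-box stood in 12.5% of them and in 6.02% of all 32851 windows of the table. TGACG stood in 30.0% against 17.8%, TGACGTCA in 5.00% against 1.55%, AGGTCA in 5.00% against 14.0% and CCAAT in 37.5% against 33.9%. The members' windows were also richer in G and C, with a median of 60.8% against 52.4%, and the part of this in the motif shares was not tested. A match is a description of letters and does not show binding.

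Among the 13 syntaxins, 3 lay higher past the threshold, 0 lower and 10 were not called. Of all genes tested, 9.31% lay higher and 9.34% lower. The syntaxins had a median log2 fold change of 0.02. Stx6, a SNARE of the trans-Golgi network and endosomes, stood at 31.8, 31.5, 28.9 and 33.2 CPM in vehicle mice and at 41.1, 44.5, 45.5, 39.4 and 36.4 CPM in cotadutide mice. Its groups did not overlap and the vehicle mice lay close together (log2 fold change 0.40, SE 0.08). Stx18, which serves traffic back to the endoplasmic reticulum, stood at 41.1, 40.1, 38.4 and 45.4 CPM against 50.5, 61.2, 52.2, 50.3 and 53.1 CPM. It did not overlap either (log2 fold change 0.37, SE 0.08), with cotadutide mouse 2 set apart at the top. Exons of 2 genes on the other strand, Gm42858 and Nsg1, cover 19.8% and 12.5% of its gene model, and both were scarce, at 0.412 and 1.91 CPM in vehicle mice.

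Stx4a encodes syntaxin 4, the plasma membrane SNARE of GLUT4 fusion. It stood at 57.8, 62.1, 54.4 and 67.4 CPM in vehicle and at 73.9, 79.6, 78.9, 63.5 and 73.6 CPM in cotadutide mice (log2 fold change 0.29, SE 0.09). Vehicle mouse 4 lay above cotadutide mouse 4, so the groups overlapped, and the gene stayed past the threshold in 2 of the 9 fits with 1 library left out (without vehicle mouse 4 or cotadutide mouse 4). The ratio of Stxbp3 to Stx4a, partners in that fusion step, was 0.405 ± 0.0807 (SD, n = 4) in vehicle and 0.245 ± 0.0501 (SD, n = 5) in cotadutide mice, with overlapping groups.

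The syntaxins known as partners of Stxbp2 were not called. Stx3 stood at 17.2 ± 1.92 CPM (SD, n = 4) and 17.4 ± 1.69 CPM (SD, n = 5). The ratio of Stxbp2 to Stx3 was 1.63 ± 0.200 against 3.32 ± 0.343 with no overlap. Stxbp2 alone already separated the groups, so this ratio adds no further support. Stx11 was near the limit of what was counted, at 1.32, 1.19, 1.00 and 0.594 CPM in vehicle and 0.874, 0.513, 1.28, 0.550 and 0.666 CPM in cotadutide mice. Those levels rested on 91 and 60 counts over the groups, and the groups overlapped (log2 fold change -0.42, SE 0.33). Stx1a, the syntaxin of nerve terminals, was as scarce, at 1.58 ± 0.528 CPM in vehicle mice.

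The remaining syntaxins had log2 fold changes from -0.16 for Stx7, a late endosomal syntaxin, to 0.23 for Stx8, its partner in the same complex. Stx17, which acts in fusion of autophagosomes with lysosomes, stood at 24.3, 24.3, 26.7 and 24.6 CPM in vehicle and 26.5, 29.2, 29.2, 30.9 and 27.9 CPM in cotadutide mice, overlapping at 1 vehicle mouse (log2 fold change 0.20, SE 0.07). Stx12, a syntaxin of recycling endosomes, had nearly equal means, at 65.5 ± 2.00 and 65.7 ± 4.35 CPM (log2 fold change 0.00, SE 0.07). Stx2, Stx5a and Stx16 lay between -0.14 and 0.11 on the log2 scale with overlapping groups.

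Of the 7 VAMPs, 1 lay higher past the threshold, 1 lower and 5 were not called, beside 9.31% higher and 9.34% lower of all genes. Vamp8, or endobrevin, serves late endosomes and regulated secretion. It stood at 48.7, 55.0, 46.2 and 68.2 CPM in vehicle and 74.0, 84.1, 71.3, 60.0 and 80.2 CPM in cotadutide mice (log2 fold change 0.44, SE 0.13). The groups overlapped because vehicle mouse 4 lay above cotadutide mouse 4, and the call held in 2 of 9 fits with 1 library left out (without either of these 2 mice). Without vehicle mouse 4 the log2 fold change was 0.56.

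Vamp7, a SNARE of late endosomes and lysosomes, stood at 10.2, 9.91, 11.2 and 9.51 CPM in vehicle and at 8.33, 5.83, 6.12, 7.54 and 7.42 CPM in cotadutide mice. The groups did not overlap (log2 fold change -0.53, SE 0.13). Its gene lies on the unplaced scaffold GL456233.1 from 10738 to 39148 in the tables, and its values rest on 870 and 554 counts over the groups. As a ratio of counts within a library, Vamp8 to Vamp7 was 5.40 ± 1.32 (SD, n = 4) in vehicle and 10.7 ± 2.53 (SD, n = 5) in cotadutide mice, with no overlap. Vamp7 alone already separated the groups, so this ratio adds no further support.

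The VAMPs of GLUT4 and recycling vesicles were not called. Vamp2 stood at 62.0 ± 3.21 CPM (SD, n = 4) and 65.0 ± 4.34 CPM (SD, n = 5), and Vamp3, or cellubrevin, at 80.6 ± 2.08 and 77.0 ± 2.63 CPM. Vamp4, of the trans-Golgi network, had a log2 fold change of -0.01 (SE 0.08). Vamp1, known from nerve terminals, was not called although its groups did not overlap, with 16.5 to 17.7 CPM in vehicle and 13.3 to 15.8 CPM in cotadutide mice. Vamp5, described first in muscle cells, had the largest SD of log2 CPM of the VAMPs in both groups, 0.38 in vehicle and 0.34 in cotadutide mice. It stood at 22.6, 27.2, 26.2 and 41.5 CPM in vehicle and 31.5, 20.6, 20.1, 17.6 and 26.2 CPM in cotadutide mice. Its high value was in vehicle mouse 4, the library with the highest muscle marker sum, and its log2 fold change was -0.34 (SE 0.20). The log2 fold change of Vamp5 was 0.20 (SE 0.22) with the muscle marker score as a covariate, -0.05 (SE 0.29) with the macrophage score and -0.13 (SE 0.17) without vehicle mouse 4. Both scores differed between the groups, so the covariate fits cannot fully tell them apart from treatment.

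**Figure D2:**
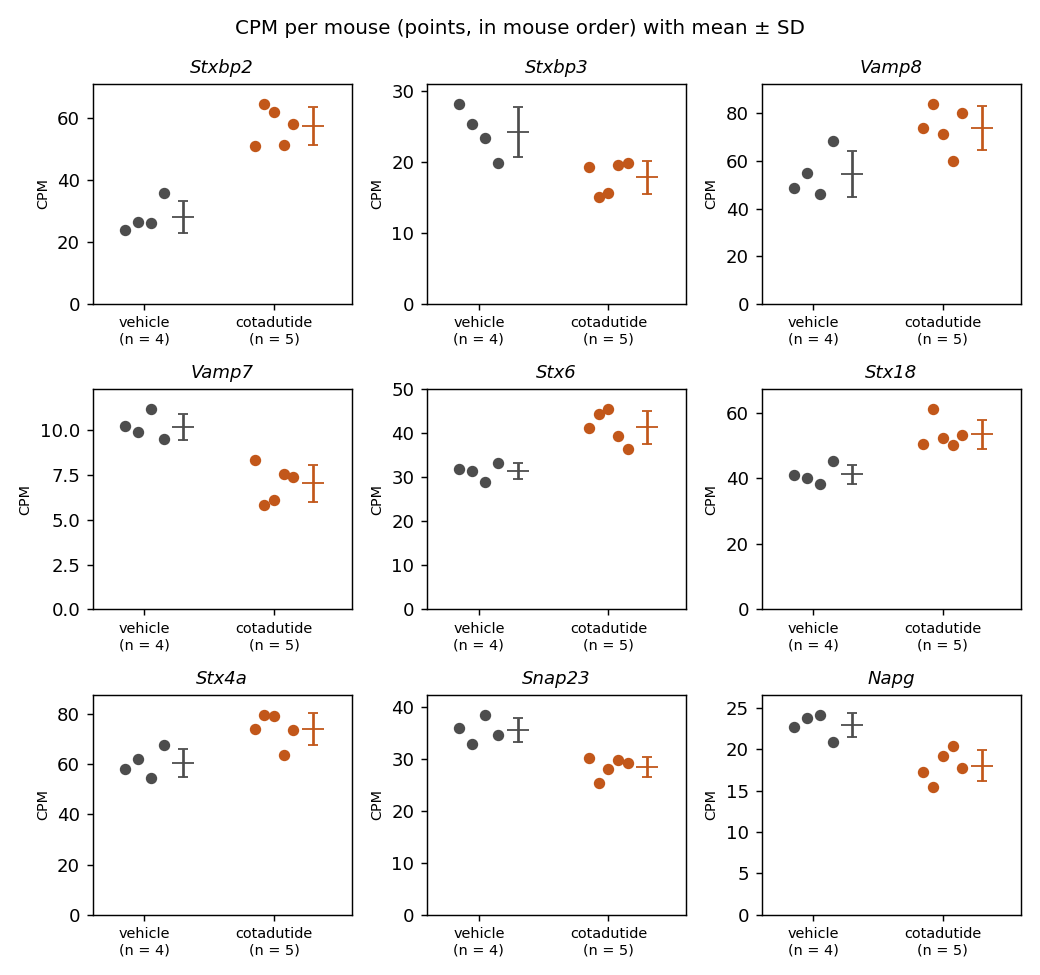
CPM (y axis, from 0) of the 9 genes past the threshold in each of 4 vehicle mice (grey) and 5 cotadutide mice (orange), points in the order of mouse number, with mean and SD beside them. The groups separate for Stxbp2, Stx6, Stx18, Stxbp3, Vamp7, Snap23 and Napg and overlap for Vamp8 and Stx4a.

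In the SNAP-25 family, 1 of 3 genes tested lay lower and the other 2 were not called, beside 9.34% of all genes lower. Snap23, the form of most tissues outside the brain and a partner of syntaxin 4, stood at 36.0, 33.0, 38.6 and 34.7 CPM in vehicle and 30.1, 25.4, 28.1, 29.9 and 29.2 CPM in cotadutide mice. The groups did not overlap (log2 fold change -0.32, SE 0.08). The ratio of Stx4a to Snap23 was 1.71 ± 0.247 (SD, n = 4) against 2.61 ± 0.383 (SD, n = 5), also with no overlap. Snap23 alone already separated the groups, so this ratio adds no further support. Snap29, which joins Stx17 and Vamp8 in autophagosome fusion, stood at 20.2 ± 0.478 and 19.8 ± 0.969 CPM, and Snap47 at 27.2 ± 1.82 and 25.6 ± 3.46 CPM. Snap25, the form of neurons, had 0 counts over the vehicle libraries, where the floor of 3 counts is 0.036 CPM and the exact Poisson 95% upper limit is 0.0443 CPM, and 5 counts over the cotadutide libraries, or 0.0629 CPM (exact Poisson 95% interval 0.0204 to 0.147).

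The adaptors of SNARE disassembly were unequal. Napa, which encodes the main adaptor alpha-SNAP, was the most abundant member in counts, at 104.6, 106.3, 107.2 and 121.5 CPM in vehicle and 122, 129.6, 120.6, 124.5 and 135 CPM in cotadutide mice. Its groups overlapped at vehicle mouse 4 and it was not called by edgeR (log2 fold change 0.20, SE 0.08), but it was past the threshold in DESeq2 and in edgeR without vehicle mouse 4. Napg, for gamma-SNAP, lay lower and past the threshold, with 22.7, 23.8, 24.2 and 20.9 CPM against 17.2, 15.4, 19.2, 20.4 and 17.7 CPM (log2 fold change -0.35, SE 0.09). Its groups came within 1 CPM of each other without overlap. The ratio of Napa to Napg was 4.83 ± 0.657 in vehicle and 7.10 ± 0.946 in cotadutide mice (SD, n = 4 and 5), with no overlap. Napg alone already separated the groups, so this ratio adds no further support. Nsf, the ATPase itself, stood at 19.1 ± 1.37 and 16.6 ± 2.51 CPM and was not called (log2 fold change -0.21, SE 0.12).

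None of the 7 SNAREs of the Golgi and endosomes was called, and their log2 fold changes ran from -0.14 for Gosr2 to 0.18 for Vti1a. Sec22b and Ykt6, which act between the endoplasmic reticulum and the Golgi, stood at 44.3 ± 3.22 and 66.5 ± 4.40 CPM in vehicle mice, with log2 fold changes of -0.03 (SE 0.08) and -0.07 (SE 0.08). Bet1, their partner, had a log2 fold change of 0.03 (SE 0.07) and Gosr1 one of 0.07 (SE 0.07). Vti1b, of late endosomes, ranged from 71.8 to 95.7 CPM in vehicle mice and from 79.6 to 96.3 CPM in cotadutide mice.

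Levels of different genes were compared as CPM per kb of gene model, in vehicle mice. Vti1b was highest, at 52.1 ± 6.79 CPM per kb (SD, n = 4), although exons of Arg2 on the other strand cover 17.7% of its model. Napa (29.0 ± 2.06), Vamp3 (27.9 ± 0.719), Stx4a (25.6 ± 2.38) and Vamp8 (23.6 ± 4.26) followed in CPM per kb, and the ranges of Napa and Vamp3, of Vamp3 and Stx4a, and of Stx4a and Vamp8 overlapped between mice. Stx4a made up 24.7% of the summed syntaxin level per kb, Stx12 19.9% and Stx7 14.4%. Among the VAMPs, Vamp3 made up 32.0% and Vamp8 26.8%, against 18.6% for Vamp2. In cotadutide mice Vamp8, at 34.8%, stood above Vamp3, at 29.1%. Stxbp2 stood at 6.74 ± 1.26 CPM per kb and Stxbp3 at 4.53 ± 0.656, with no overlap between the 2 genes (5.72 to 8.59 against 3.72 to 5.28). Stxbp4, Stx11 and Stx1a were the scarcest genes tested, each under 0.6 CPM per kb. Gene models can be longer than the mRNA made, which lowers the level per kb.

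**Figure D3:**
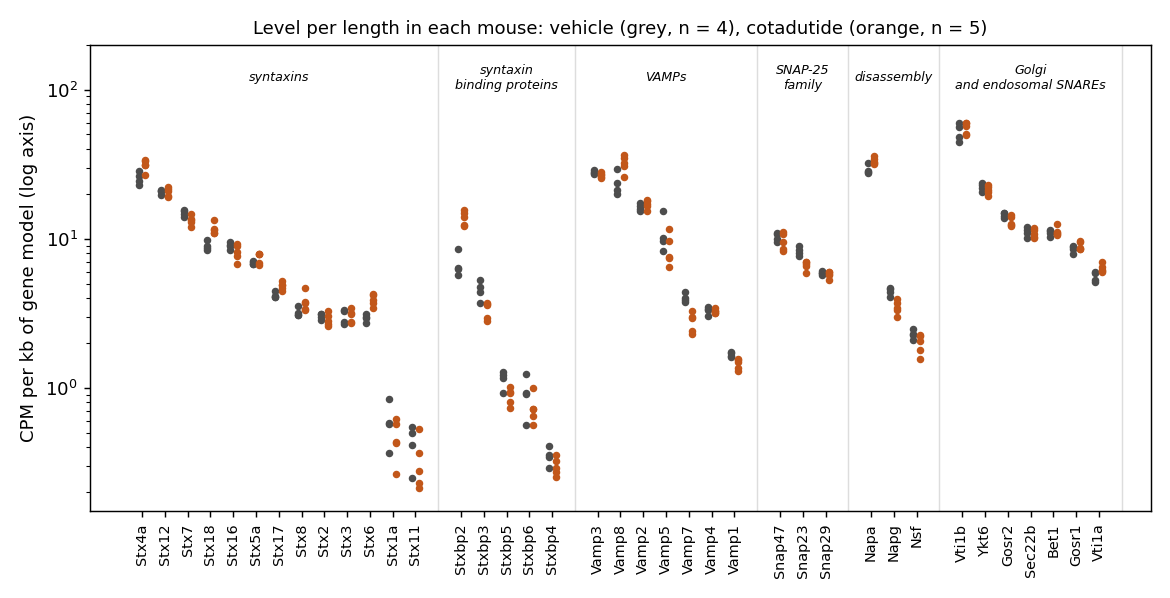
CPM per kb of gene model (y axis, log scale) of the 38 genes tested in each vehicle (grey) and cotadutide (orange) mouse, sorted by level within each role. Vti1b is highest at 52.1 CPM per kb in vehicle mice, and Stxbp2 is the gene whose 2 groups lie farthest apart.

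Differences between mice of a group were small for these genes. The median SD of log2 CPM among vehicle mice was 0.09 for the 33 members with a mean from 10 to 140 CPM, against 0.14 for the 7373 genes tested in that range. Among cotadutide mice it was 0.12 against 0.15.

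In bulk tissue, fewer cells of a type and less RNA per cell cannot be told apart, and several cell type markers differed between the groups. Summed over 10 adipocyte markers, the level was 21391 to 24772 CPM in vehicle and 27869 to 33394 CPM in cotadutide mice (1.31-fold, adjusted p = 0.0397 by an exact two-sided permutation test over 10 marker lists; the smallest unadjusted p this design allows is 0.00794). By edgeR 4 of the 10 were higher and 1 lower. The lower one was Lep, the hormone leptin, at 320, 300.1, 271 and 50.3 CPM in vehicle and 14.2 to 44.3 CPM in cotadutide mice (edgeR adjusted p = 0.014), named after its value was seen. Skeletal muscle markers ran the other way, from 23725 to 50010 CPM in vehicle and from 5492 to 20766 CPM in cotadutide mice (exact permutation adjusted p = 0.0397), with 7 of 16 lower by edgeR. Macrophage markers summed to 365 to 603 CPM and 224 to 463 CPM, which overlapped (exact permutation adjusted p = 0.0794), with 6 of 12 lower by edgeR. Brown adipocyte markers summed to 8264 to 12370 CPM and 12115 to 17539 CPM (exact permutation adjusted p = 0.0794), with 5 of 10 higher by edgeR. The most abundant marker of each list stood at 10006 and 13476 CPM (Fabp4), 5374 and 2039 CPM (Myh4), 184 and 114 CPM (Lyz2) and 4781 and 5886 CPM (Ucp1) on average in vehicle and cotadutide mice.

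Stxbp2 was set beside these sums. Per 1000 CPM of the 10 adipocyte markers it was 1.11, 1.22, 1.17 and 1.44 CPM in vehicle and 1.76, 1.94, 2.23, 1.78 and 2.03 CPM in cotadutide mice, a ratio of means of 1.58 with no overlap. Per 1000 CPM of brown adipocyte markers it was 2.84 ± 0.253 (SD, n = 4) against 4.10 ± 0.397 (SD, n = 5), again with no overlap. Vehicle mouse 4 had the highest muscle sum of all 9 libraries and the highest Stxbp2 level among vehicle mice. With the muscle marker score as a covariate the log2 fold change of Stxbp2 was 1.02 (SE 0.19) and with the macrophage score 0.82 (SE 0.17). In those fits edgeR called 0 genes of 14747, and 2111 and 1170 had an unadjusted p under 0.05. The same covariates gave Stxbp3 a log2 fold change of -0.32 (SE 0.18) and -0.16 (SE 0.16).

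Markers of cells in which Stxbp2 is known to act were summed as well. Such sums do not give the share of these cells, and their part in the Stxbp2 level was not tested. T and NK cell markers summed to 2.42 to 4.86 CPM in vehicle and 2.37 to 18.0 CPM in cotadutide mice, with 2 of 11 abundant enough to test. Neutrophil markers summed to 2.57 to 4.12 CPM and 2.29 to 6.83 CPM, with 3 of 8 tested and Ngp at 0 in every library. Platelet markers summed to 15.8 to 27.6 CPM and 13.0 to 23.5 CPM with 3 of 7 tested, and mast cell markers to 19.6 to 57.1 CPM and 30.9 to 63.8 CPM with 6 of 8 tested. None of these 4 sums passed the exact permutation test (adjusted p from 0.357 to 0.794). Hdc, the histamine-forming enzyme, was the single called gene among the 4 lists, averaging 4.99 CPM under vehicle and 10.6 CPM under cotadutide (edgeR adjusted p = 0.0163). Mcpt4, the most abundant mast cell marker, went the other way, from 10.6 to 8.08 CPM, and was not called. The ratio of the mean mast cell sums was 0.942. Neuron and Schwann cell markers summed to 311 to 360 CPM and 271 to 324 CPM (exact permutation adjusted p = 0.0952). Most of that sum was S100b, at 275 ± 48.2 against 227 ± 26.0 CPM (SD, n = 4 and 5). Mbp, next in abundance, averaged 33.2 and 38.2 CPM. The sum thus mainly followed S100b and says little on Snap25, Stx1a or Vamp1. Endothelial markers summed to 553 to 737 CPM and 615 to 803 CPM (exact permutation adjusted p = 0.526).

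**Figure D4:**
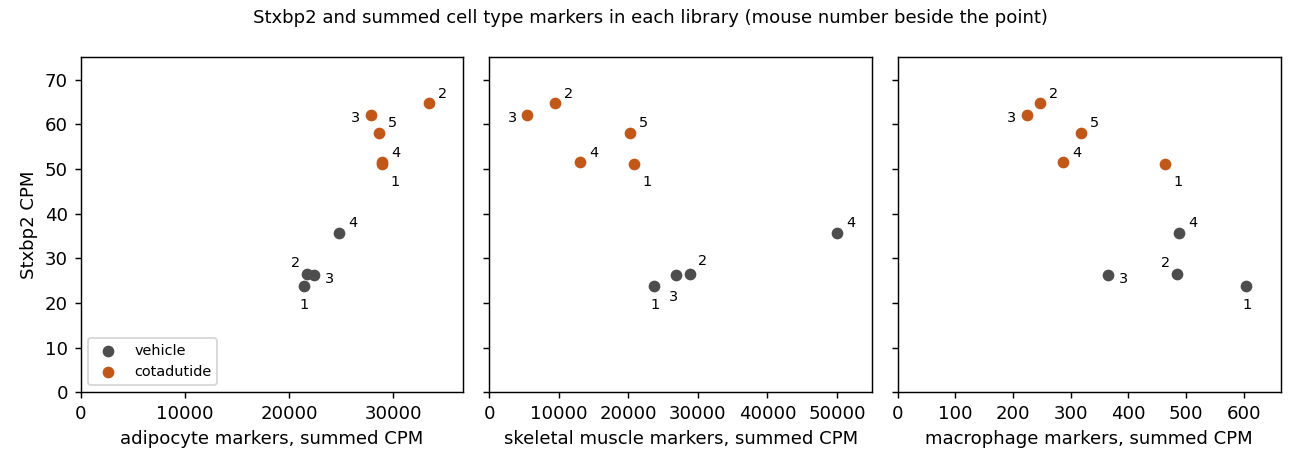
Stxbp2 CPM (y axis, from 0) against the summed CPM of adipocyte, skeletal muscle and macrophage markers (x axes) in each library, with mouse numbers beside the points. Every cotadutide library (orange, 51.0 CPM or more) lies above every vehicle library (grey, 35.7 CPM or less), and vehicle mouse 4 holds the highest muscle sum.

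The wider fusion and transport machinery was read from 5 lists of genes that are not among the 39. Of 122 such genes tested, 6 rose and 11 fell, or 13.9%, beside the 18.7% of all genes. Among other SNAREs and SM proteins, 2 of 14 rose and 1 fell, or 21.4%. Napb, which encodes beta-SNAP, another adaptor of disassembly, averaged 6.64 ± 1.23 CPM under vehicle and 3.47 ± 0.567 CPM under cotadutide and so fell by 0.93 in log2 terms (SE 0.17, edgeR adjusted p = 0.0147). Use1, a partner of Stx18 at the endoplasmic reticulum, rose 1.41-fold (73.2 ± 8.91 against 103 ± 18.0 CPM, edgeR adjusted p = 0.0253). Bet1l, a Golgi SNARE related to Bet1, rose 1.28-fold (28.2 ± 2.30 against 36.0 ± 3.34 CPM, edgeR adjusted p = 0.0252).

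Of 24 priming factors and calcium sensors tested, 2 rose and 1 fell, or 12.5%, beside 18.7% of all genes. Baiap3, a relative of the Munc13 priming factors, rose 2.09-fold from 1.13 ± 0.417 to 2.35 ± 0.499 CPM (edgeR adjusted p = 0.0252). Sytl1, a synaptotagmin-like protein that binds Rab27, rose 2.37-fold from 2.05 ± 0.930 to 4.79 ± 1.77 CPM (edgeR adjusted p = 0.0285), with overlapping groups. Dysf, the membrane repair protein dysferlin of muscle, fell from 42.4 ± 2.19 to 30.8 ± 4.10 CPM (log2 fold change -0.46, edgeR adjusted p = 0.0178), beside the lower muscle marker sum given above. Fitted with the muscle score, the log2 fold change of Dysf was -0.22 (edgeR adjusted p = 0.415), and with the macrophage score it was -0.24 (edgeR adjusted p = 0.621). These fits, too, cannot fully tell the scores apart from treatment.

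In GLUT4 vesicle traffic, 1 of 24 genes rose and 2 fell, or 12.5%, beside 18.7% of all genes. Rhoq, which encodes the GTPase TC10, fell from 249 ± 40.9 to 175 ± 21.6 CPM (log2 fold change -0.51, edgeR adjusted p = 0.0241), and Tbc1d1, a Rab GTPase-activating protein, from 11.4 ± 1.65 to 8.52 ± 0.935 CPM (log2 fold change -0.42, edgeR adjusted p = 0.0414). Rab8a rose 1.18-fold (37.4 ± 2.59 against 44.1 ± 2.56 CPM, edgeR adjusted p = 0.0476). Of 34 tethering genes, 1 rose and 5 fell, or 17.6%. The exocyst subunits Exoc6 (32.2 ± 3.86 against 22.4 ± 2.63 CPM, edgeR adjusted p = 0.0163) and Exoc5 (34.6 ± 1.36 against 26.3 ± 2.63 CPM, edgeR adjusted p = 0.0177) fell, and the Golgi tether subunit Cog4 rose from 93.3 ± 3.44 to 117 ± 8.80 CPM (log2 fold change 0.32, edgeR adjusted p = 0.022). Of 26 coat genes, 2 fell, or 7.69%. Both belong to the COPII coat that leaves the endoplasmic reticulum, Sec24d (19.6 ± 4.92 against 11.5 ± 1.90 CPM, edgeR adjusted p = 0.0189) and Sec23a (31.6 ± 1.65 against 20.2 ± 4.53 CPM, edgeR adjusted p = 0.019). Copz2, a COPI subunit, did not pass (edgeR adjusted p = 0.0525). Leaving out vehicle mouse 1 gave 0 calls higher and 1 lower in these lists, leaving out vehicle mouse 2 gave 0 and 2, and leaving out vehicle mouse 4 gave 12 and 19, in the fits whose calls over all genes are given above.

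Stxbp2 lies on chromosome 8 from 3630955 to 3643644 on the plus strand, and no exon of another gene overlaps its exons. Of 6 other genes within 50 kb that were tested, 2 rose, beside 9.31% of all genes. These were Xab2 (26.1 ± 2.57 against 37.4 ± 4.51 CPM, log2 fold change 0.52, edgeR adjusted p = 0.0163) and Fcor, a corepressor of Foxo1 in fat (22.5 ± 4.50 against 39.9 ± 9.05 CPM, log2 fold change 0.83, edgeR adjusted p = 0.0184). The nearest gene downstream, Retn, which encodes the adipocyte hormone resistin, was not called at 58.5 ± 21.0 and 101.1 ± 47.5 CPM (log2 fold change 0.79 with a standard error of 0.34, edgeR adjusted p = 0.118). Camsap3, Pet100 and Trappc5 were not called either, with log2 fold changes from 0.24 to 0.53 (edgeR adjusted p from 0.0579 to 0.238). These neighbours were looked up after the values of Stxbp2 were known, and a shared cause was not tested.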

How the data were processed

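RNA sequencing of brown adipose tissue from 9 mice gave 1 table of raw read counts per gene each, which the authors deposited with no normalization. Per the submitters' processing notes, bcl2fastq 2.17, Trimmomatic 0.36, STAR 2.5.2b and featureCounts of Subread 1.5.2 were used, with build mm10. The strand setting and annotation were not given in the sources used here, so reads of overlapping genes on opposite strands cannot be told apart.

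Groups were taken from the labels. Identifiers were paired with symbols through reference tables, and 49056 of 49315 had one; the other 259 held 0.0132% of counts. Genes kept by filterByExpr (14747) were scaled by TMM (factors from 0.914 to 1.06) and tested by the quasi-likelihood test of edgeR 4.0.16 in R 4.3.3, with Benjamini-Hochberg adjustment over all genes and a threshold of 0.05. Log2 fold changes and their standard errors come from that fit. Level per kb divides CPM by the gene length in the tables. For marker sums the exact two-sided permutation test was used. Intervals and floors (3 counts) cover counting error only. On simulated counts for 14747 genes of cotadutide against vehicle, the test recovered 1.99% of 201 genes changed 1.25-fold. It recovered 28.4% of 201 at 1.5-fold and 69.2% of 198 at 2-fold, over all runs together. Far fewer genes were changed there than the 2751 called in the data, which makes the adjusted threshold stricter. The rates therefore do not measure the power reached in these data.

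Alternatives were edgeR with relative log expression scaling, DESeq2 1.42.0, limma-voom (limma 3.58.1), other filters, no mitochondrial genes, a muscle or macrophage marker score as a covariate, a block by mouse number and each library left out in turn. All members were described. From each of the 5 transport lists the at most 3 genes with the smallest adjusted p were named, and from marker lists the 2 most abundant genes could be named. The members and lists were chosen with earlier results of these data known.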

Additional observations from a re-analysis of the deposited data

Results flagged for a closer look

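In 11 of 136 groups checked, 1 library lay far from the rest by Dixon's criterion; chance gives about 1 in 20. Among the SNARE genes, vehicle mouse 3 had 26.69 CPM of Stx17 (others 24.31 to 24.63), vehicle mouse 4 had 121.5 CPM of Napa (others 104.6 to 107.2), and cotadutide mouse 2 had 61.16 CPM of Stx18 (others 50.26 to 53.11) and 46.99 CPM of Bet1 (others 39.47 to 41.46). Cotadutide mouse 2 was also high for Bet1l, at 41.8 CPM (others 33.42 to 35.51), and for the adipocyte marker sum, at 33390 CPM. Vehicle mouse 4 was high for Use1, at 86.48 CPM (others 67.28 to 69.92), and low for Tbc1d1, at 8.913 CPM (others 11.98 to 12.31). Vehicle mouse 2 had the low mast cell marker sum, at 19.58 CPM (others 51.15 to 57.15). Cotadutide mouse 3 had the high sums of T and NK cell markers, at 18.0 CPM (others 2.372 to 4.989), and of endothelial markers, at 803.2 CPM (others 614.8 to 650.6).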

How the results depend on the processing

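The log2 fold change of Stxbp2 was 0.82 with the macrophage score as a covariate, against 1.04, and Stxbp2 was past the edgeR threshold in 16 of 18 alternatives; the exceptions were the muscle and macrophage covariates. All 9 SNARE genes called kept their direction in 18 of 18 alternatives, and the calls held in 5 (Stx4a) to 16 of them. Sizes did move. With the muscle score the log2 fold change was -0.32 for Vamp7 (main fit -0.53) and 0.28 for Stx6 (main fit 0.40). With the macrophage score it was -0.31 for Vamp7 and -0.16 for Stxbp3 (main fit -0.44). Vamp8 grew with the muscle score, to 0.58 from 0.44. Napg grew with both scores, to -0.42 and -0.37 from -0.35. The alternatives reuse the counts by which these genes were called, so kept direction is no independent support. With the muscle or the macrophage covariate edgeR called 0 genes higher and 0 lower among all genes, the SNARE genes and the transport lists. Both scores differed between the groups, so these fits cannot fully tell them apart from treatment. At an unadjusted p under 0.05 the muscle covariate left 2111, 7 and 12 genes and the macrophage covariate 1170, 5 and 5. With the replicate block by mouse number, edgeR called 516 higher and 768 lower of all genes. For SNARE genes the counts were 2 and 0, and for the transport lists 2 and 5. At an unadjusted p under 0.05 the block left 4674 of all 14747 genes and 10 of 38 SNARE genes. Mouse numbers gave no pairing, with correlations of same-numbered deviations from -0.04 to 0.135 over 4 pairs. With no filter 900 genes were higher in all and 3 in the transport lists, and DESeq2 called 13 of the latter higher. Leaving out each library in turn gave 42 to 2116 genes higher and 92 to 1724 lower, 1 to 6 and 0 to 5 SNARE genes, and 0 to 12 and 1 to 19 transport genes. Without vehicle mouse 1, 2 or 3 or cotadutide mouse 2, 0 SNARE genes were lower. In those fits 12, 10, 12 and 12 of 38 SNARE genes had an unadjusted p under 0.05 in edgeR. Over all genes these counts were 4010 of 14816, 4359 of 14823, 4440 of 14923 and 4247 of 14668. On unscaled totals the marker sums for brown adipocytes (ratio 1.36), macrophages (0.607) and neurons and Schwann cells (0.843) passed the exact permutation test. Most of the last sum was S100b. The causes were not tested. Depth limits Stx11, Stx1a and Snap25 most.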
